A study of Rattus norvegicus with 12 samples.

Results

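The small leucine-rich proteoglycans were followed in calvarial bone, the flat bone of the skull vault, of 10-week-old rats (Rattus norvegicus) 24 h after surgery. Members were taken by the gene name of the array probes, which gave 13 of 45598 probes for 9 genes: Bgn, Dcn, Aspn, Fmod, Lum, Prelp, Kera, Omd and Ogn. A probe was kept if its spots stood well above background in 4 or more arrays. This held for 12 of the 13 probes, so that 8 of the 9 genes entered the tests, among 16381 genes in all. Kera, which encodes keratocan of the corneal stroma, was not well above background on any of the 12 arrays and was not tested.

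The arrays formed 3 groups of 4. In the laser group a rectangle of bone of 8 by 3 mm was ablated with 3 strokes of an Er:YAG laser at 20 Hz and 127 mJ per pulse. In the bur group a rectangle of the same size was drilled with a bur. The control was periosteum removal only: the fibrous sheath of bone was stripped off and no bone was cut. The labels used here name no strain, sex or genotype. They also leave unsaid whether each sample is its own animal, so a p-value here measures only the spread between these samples, which may be technical.

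The small leucine-rich proteoglycans are secreted proteins whose core is a curved stack of leucine-rich repeats, on which many of them carry chondroitin, dermatan or keratan sulfate chains. They bind collagen fibrils and set their diameter and spacing, and several hold growth factors such as TGF-beta in the matrix or bind receptors at the cell surface. In bone, biglycan and decorin belong to the matrix that osteoblasts lay down, osteomodulin is made by maturing osteoblasts, and asporin is known from the periosteum and the periodontal ligament.

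The genes lie in clusters. In the gene order of the rat assembly GRCr8, Ogn, Omd and Aspn follow each other on chromosome 17, with Ecm2 beyond 1 pseudogene. Dcn, Lum, Kera and Epyc adjoin on chromosome 7, Optc, Prelp and Fmod adjoin on chromosome 13, and Bgn lies on chromosome X. Genes of 1 cluster gave different calls here, though the differences between neighbours were not tested. Aspn was called higher in both cut groups, while Ogn had log2 differences of 0.18 in bur and −0.18 in laser against control. Lum was called higher in laser against control, where Dcn had a log2 difference of 0.19 and Kera was not detected.

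Some of the probes are shown, because the results turn on what they read: Aspn and Lum gave calls, Dcn is the neighbour of Lum, and the Ogn probe disagreed with the other probe of its gene. Each has 60 bases and is printed 5′ to 3′, and at least 1 of its forward reading frames is free of stop codons. Capitals mark the 27 bases in the Dcn and Lum probes whose codons match the leucine-rich repeat motif.
Aspn probe A_44_P253073: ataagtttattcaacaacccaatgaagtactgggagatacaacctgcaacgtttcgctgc
Lum probe A_44_P458627: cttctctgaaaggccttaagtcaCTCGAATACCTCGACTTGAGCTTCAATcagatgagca
Dcn probe A_42_P647599: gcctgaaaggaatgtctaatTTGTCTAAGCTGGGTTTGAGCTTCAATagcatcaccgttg
Ogn probe A_44_P994238: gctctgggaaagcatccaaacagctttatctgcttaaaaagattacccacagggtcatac

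The files place these probes on the rn4 build. The Aspn probe lies at chr17:21035836-21035895 on the minus strand and the Ogn probe at chr17:20988620-20988679 on the minus strand. The Lum probe lies at chr7:35086409-35086468 on the plus strand. The Dcn probe is spread over 3802 bases at chr7:35037331-35041132 on the plus strand, so its 60 bases are not contiguous in the genome. Exon annotation of rn4 was not used here. The repeat motif stands at bases 21 to 47 of the Dcn probe and 24 to 50 of the Lum probe, and the Aspn and Ogn probes hold none.

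The 250 bases upstream of the annotated start are given for the 3 genes with a call, from RefSeq on GRCr8. Capitals mark matches, on either strand, to 6 short motifs: the TATA box (TATAAA), the CCAAT box (CCAAT), the E-box (CANNTG), the AP-1 site (TGANTCA), the RUNX site (TGTGGT) and the GC box (GGGCGG).
Aspn upstream region, chr17:15310470-15310719, minus strand: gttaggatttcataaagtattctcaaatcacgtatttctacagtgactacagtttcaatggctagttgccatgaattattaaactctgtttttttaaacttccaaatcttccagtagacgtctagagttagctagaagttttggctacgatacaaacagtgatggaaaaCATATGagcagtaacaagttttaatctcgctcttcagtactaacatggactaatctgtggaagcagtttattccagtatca
Fmod upstream region, chr13:48045317-48045566, plus strand: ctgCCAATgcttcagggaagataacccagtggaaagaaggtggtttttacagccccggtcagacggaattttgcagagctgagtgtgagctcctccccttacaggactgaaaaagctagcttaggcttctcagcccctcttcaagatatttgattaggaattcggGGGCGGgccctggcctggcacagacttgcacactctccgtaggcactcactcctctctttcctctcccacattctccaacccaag
Lum upstream region, chr7:34245456-34245705, plus strand: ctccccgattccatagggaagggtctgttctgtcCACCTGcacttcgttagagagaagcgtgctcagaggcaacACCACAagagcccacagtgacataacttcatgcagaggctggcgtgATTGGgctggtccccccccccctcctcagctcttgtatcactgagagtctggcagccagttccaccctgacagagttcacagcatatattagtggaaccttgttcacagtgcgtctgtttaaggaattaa

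The upstream region of Aspn holds 1 E-box, 81 bases before the start, and 34.8% of its bases are G or C. That of Fmod holds a CCAAT box 247 bases and a GC box 85 bases before the start, with 52.8% G or C. That of Lum holds an E-box at 216, a RUNX site at 176 and a CCAAT box at 130 bases before the start. The 3 regions share no motif of the 6 in all. Among 33469 upstream regions of the same length, 65.5% hold an E-box, 34.0% a CCAAT box, 30.5% a GC box, 14.5% a RUNX site, 12.9% a TATA box and 6.34% an AP-1 site.

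Signals were background-corrected intensities, quantile normalized and taken to log2, and a difference between groups is given in log2 units with its standard error. No level is set against that of another gene, since probes differ in brightness. Before normalization the median spot signal averaged 67.1 in the laser group, against 22.3 in the bur group and 28.7 in the control group (n = 4 each). All laser arrays lay on slide 2, and the bur and control arrays filled separate columns of slide 1, so slide or column and group cannot be told apart. The samples are pieces of tissue, in which fewer cells of a type and less RNA per cell cannot be told apart.

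**Figure D1:**
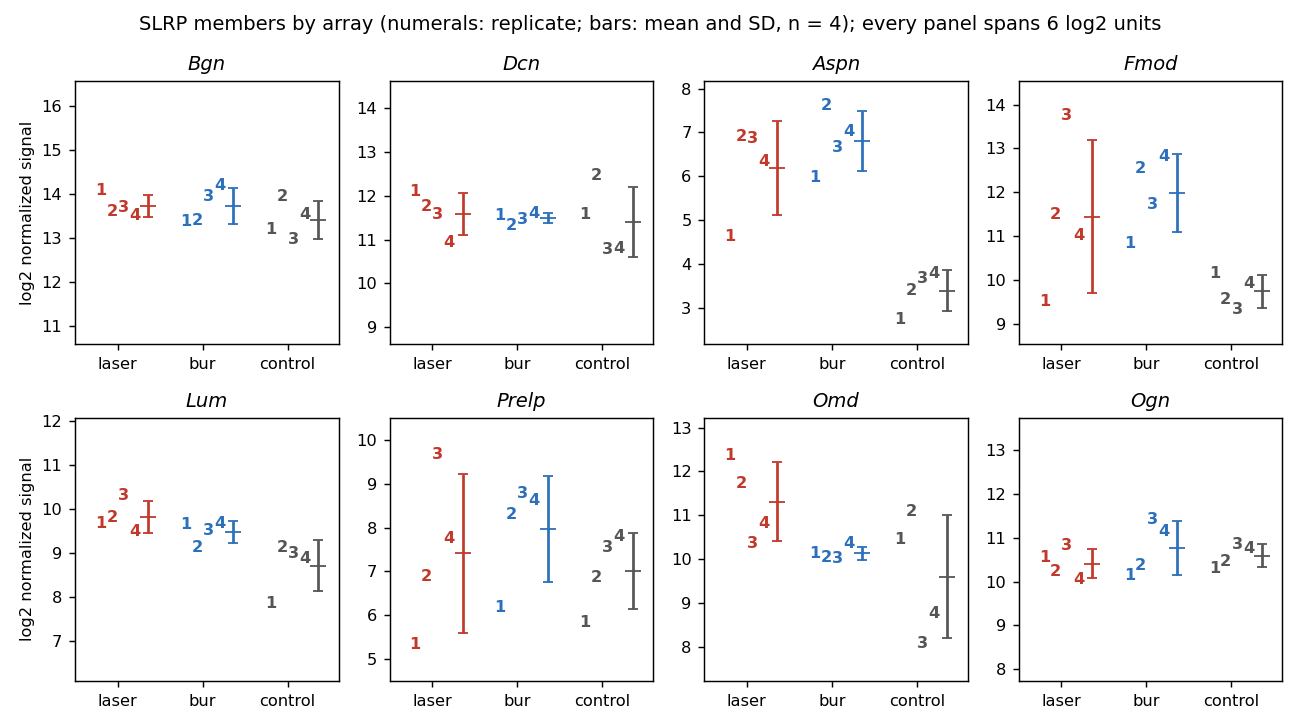
Log2 normalized signal of the 8 detected small leucine-rich proteoglycan genes on each array, by group (laser, bur, control); numerals are replicate numbers and bars the mean and SD (n = 4), and every panel spans 6 log2 units. All 8 laser and bur values of Aspn stand above the 4 control values, whereas Dcn and Bgn overlap in all groups.

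Aspn was called in both cut groups: it was 10.7-fold higher after bur drilling and 6.93-fold higher after laser ablation than in uncut bone, where 2 of the 4 arrays read it well above background. Fmod was 4.72-fold higher after bur drilling, and Lum was 2.17-fold higher after laser ablation. So 2 of the 8 members tested were called higher in bur against control, Aspn and Fmod, at an adjusted p under 0.05 (limma, Benjamini-Hochberg over all genes). Of all genes, 23.4% were called in that comparison, 13.7% higher and 9.74% lower. In laser against control 2 of 8 were called higher, Aspn and Lum, where 34.4% of all genes were called, 18.3% higher and 16.2% lower. In laser against bur none of the 8 was called, where 25.8% of all genes were called, 11.6% higher and 14.2% lower. No member had an unadjusted p under 0.05 there either, and the smallest was 0.0820, of Omd.

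The shares of called members in the comparisons with control were thus close to those of all genes. The median log2 difference of the 8 members was 0.66 in bur against control, 0.76 in laser against control and −0.18 in laser against bur, and the medians of all genes were 0.08, 0.01 and −0.06. With each array scaled to its 75th percentile instead, the median of all genes in bur against control was −0.08, and the calls split into 1655 higher and 2262 lower genes in place of 2241 higher and 1596 lower. The calls of Aspn, Fmod and Lum named above held under that scaling.

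**Figure D2:**
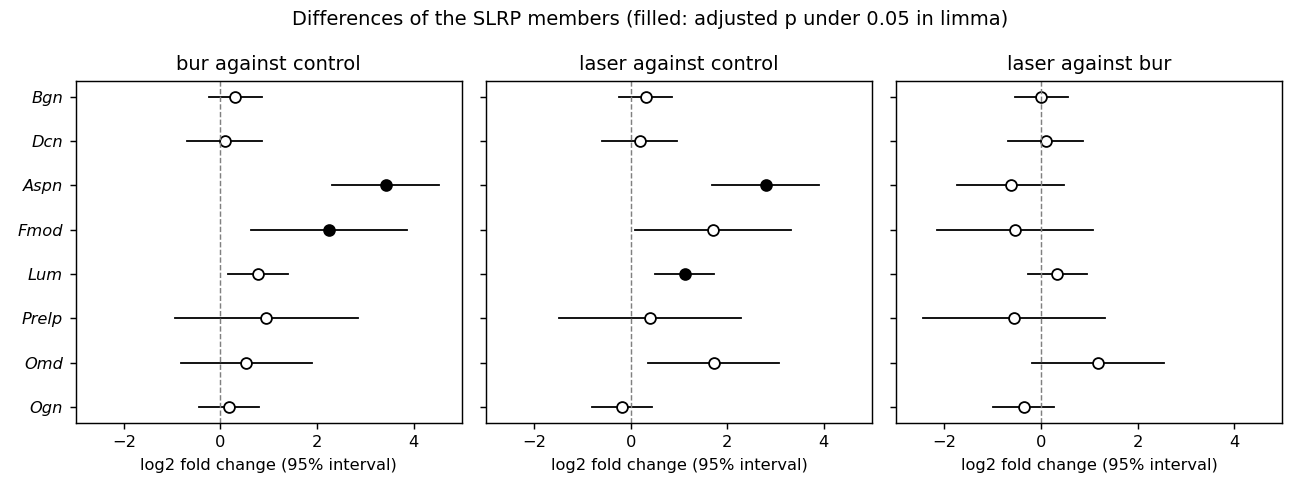
Log2 fold changes of the 8 members with their 95% intervals in bur against control, laser against control and laser against bur; filled points passed an adjusted p of 0.05 in limma. The filled points are Aspn and Fmod in the first panel and Aspn and Lum in the second, and there is none in the third.

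Class I of the family is biglycan, decorin and asporin. Aspn encodes asporin, which binds collagen and TGF-beta, carries a run of aspartic acid residues and, unlike its relatives, is made without a sulfated sugar chain. On the 4 laser arrays Aspn read 4.62, 6.92, 6.87 and 6.34, on the bur arrays 5.97, 7.61, 6.65 and 7.03, and on the control arrays 2.74, 3.39, 3.67 and 3.79. Neither cut group overlapped the controls, and the lowest cut value was that of laser 1. Only controls 3 and 4 were well above background, so that the control mean rests in part on dim spots.

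Aspn averaged 6.81 ± 0.69 in bur bone and 3.39 ± 0.47 in control bone (SD, n = 4 each). The difference was 3.42 ± 0.50 (limma, adjusted p = 0.00104), with a 95% interval for the fold of 4.97 to 23.0. It averaged 6.19 ± 1.07 in laser bone, 2.79 ± 0.50 above control (limma, adjusted p = 0.00174), with an interval of 3.22-fold to 14.9-fold. The difference between laser and bur was −0.62, with a 95% interval of −1.73 to 0.48 (limma, adjusted p = 0.406). With another background correction, normexp, the sizes were 1.31 for bur and 1.05 for laser against control, still called, and were below those of Fmod (1.88 and 1.40). Neither of these Fmod differences was called (limma, adjusted p = 0.0632 and 0.140). The order of the members by size thus depends on the background correction. In the authors' deposited table Aspn differed by 1.95 in bur against control and by 1.57 in laser against control.

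Bgn encodes biglycan, a proteoglycan with chondroitin or dermatan sulfate chains that is abundant in bone matrix and, when released, is a ligand of Toll-like receptors. Bgn read 14.09, 13.61, 13.69 and 13.52 on laser arrays, 13.38, 13.39, 13.94 and 14.19 on bur arrays, and 13.20, 13.95, 12.97 and 13.53 on control arrays. The 3 groups overlapped. The difference was 0.31 ± 0.25 in bur against control, with a 95% interval of −0.24 to 0.86, and 0.32 ± 0.25 in laser against control, with −0.23 to 0.86. Neither was called (limma, adjusted p = 0.394 and 0.353).

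Dcn encodes decorin, the relative of biglycan that coats type I collagen fibrils and binds TGF-beta. Dcn read 12.09, 11.75, 11.57 and 10.95 on laser arrays, 11.56, 11.33, 11.47 and 11.60 on bur arrays, and 11.58, 12.46, 10.77 and 10.80 on control arrays. All laser and bur values lay between the lowest and the highest control. The difference was 0.09 ± 0.35 in bur against control, with a 95% interval of −0.69 to 0.86, and 0.19 ± 0.35 in laser against control, with −0.59 to 0.96. Its sign turned without control 3 (−0.12 in bur and −0.02 in laser) and without control 4 (−0.11 and −0.01).

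Class II holds fibromodulin, lumican, PRELP, osteomodulin and keratocan. Fmod encodes fibromodulin, a keratan sulfate proteoglycan that binds type I collagen and guides its cross-linking, known from tendon and cartilage. Fmod read 9.52, 11.50, 13.75 and 11.02 on laser arrays, 10.84, 12.55, 11.71 and 12.81 on bur arrays, and 10.15, 9.56, 9.32 and 9.93 on control arrays. All 4 bur values lay above the highest control. The laser values spanned over 4 log2 units, and laser 1 lay among the controls.

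Fmod averaged 11.98 ± 0.89 in bur bone and 9.74 ± 0.37 in control bone (SD, n = 4 each), a difference of 2.24 ± 0.74 (limma, adjusted p = 0.0477). The 95% interval for the fold was 1.54 to 14.5. This call stood just inside the threshold, and in the authors' deposited table Fmod differed by 1.92 with an adjusted p of 0.0447. The authors' deposited values in the fit used here gave an adjusted p of 0.0509 (limma), not called. With normexp the call was lost (1.88, limma adjusted p = 0.0632). The call was also lost without bur 2, bur 3 or bur 4 (2.05, 2.33 and 1.96) and without control 1, 2, 3 or 4 (2.38, 2.18, 2.10 and 2.30), with adjusted p up to 0.122, while the sign held in all of them. Laser bone averaged 11.45 ± 1.75, a difference of 1.71 ± 0.74 from control that was not called (limma, adjusted p = 0.0939). Without laser 1 it was 2.35 and called (limma, adjusted p = 0.0234), and without laser 3 it was 0.94. The difference between laser and bur was −0.53, with a 95% interval of −2.15 to 1.08.

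Lum encodes lumican, a keratan sulfate proteoglycan of cornea, skin and bone that limits the width of collagen fibrils. Lum read 9.67, 9.81, 10.32 and 9.48 on laser arrays, 9.64, 9.11, 9.50 and 9.66 on bur arrays, and 7.84, 9.12, 8.98 and 8.86 on control arrays. All 4 laser values lay above the highest control, and 3 of the 4 bur values did. Laser bone averaged 9.82 ± 0.36 and control bone 8.70 ± 0.58 (SD, n = 4 each), a difference of 1.12 ± 0.28 (limma, adjusted p = 0.0105), with a 95% interval for the fold of 1.42 to 3.32. Control 1 was the lowest array; without it the difference was 0.83, still called.

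Bur bone averaged 9.48 ± 0.25 for Lum, 0.78 ± 0.28 above control (limma, adjusted p = 0.0665). That difference was called without control 2 (0.92, adjusted p = 0.0495 in limma) and, in the authors' deposited table, was 0.91 with an adjusted p of 0.0299. It was also called with normexp (0.86, limma adjusted p = 0.0344) and among probes above background on every array (0.78, limma adjusted p = 0.0465). The difference in laser against bur was 0.34, with a 95% interval of −0.27 to 0.96 (limma, adjusted p = 0.414). In the main fit Lum was thus called in 1 cut group only, and the difference between the cut groups itself was not called.

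Prelp encodes PRELP, which links collagen to basement membranes through heparan sulfate. Prelp read 5.34, 6.89, 9.67 and 7.74 on laser arrays, 6.17, 8.30, 8.78 and 8.61 on bur arrays, and 5.84, 6.87, 7.55 and 7.79 on control arrays. Replicate 1 was the lowest array in each group, and the groups overlapped. The difference was 0.95 ± 0.86 in bur against control and 0.40 ± 0.86 in laser against control, neither called (limma, adjusted p = 0.454 and 0.750). In the authors' deposited table the same probe had an adjusted p of 0.0279 in bur against control, in the same direction. The authors' deposited values in the fit used here gave an adjusted p of 0.267 (limma), not called.

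Omd encodes osteomodulin, also called osteoadherin, a keratan sulfate proteoglycan of bone that binds hydroxyapatite and integrins. Omd read 12.36, 11.72, 10.36 and 10.82 on laser arrays, 10.13, 10.04, 10.02 and 10.35 on bur arrays, and 10.45, 11.10, 8.09 and 8.77 on control arrays. All 4 laser values lay above the highest bur value, by 0.01 at the closest pair of arrays, and the bur arrays lay within the range of the controls. On the second Omd probe, A_44_P1360462, the groups overlapped, with 9.26 on laser 3 and 9.53 on bur 4. By its brighter probe Omd was the only member whose laser and bur groups did not overlap, as was so for 33.6% of all genes. The groups did not overlap for Aspn and Fmod in bur against control, against 23.2% of all genes, and for Aspn and Lum in laser against control, against 35.2%.

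Omd averaged 11.32 ± 0.90 in laser bone, 10.13 ± 0.15 in bur bone and 9.60 ± 1.41 in control bone (SD, n = 4 each). The difference in laser against control, 1.72 ± 0.62, fell just outside the threshold (limma, adjusted p = 0.0511). It was called without control 1 (2.00), control 2 (2.21) or laser 3 (2.03), and was 1.21 without control 3 and not called. The authors' deposited table gave 1.72 for the other Omd probe, with an adjusted p of 0.0115. The authors' deposited values in the fit used here gave an adjusted p of 0.0402 (limma). In laser against bur the difference was 1.18 ± 0.62, with a 95% interval of −0.18 to 2.54 (limma, adjusted p = 0.190), and in bur against control it was 0.54 ± 0.62.

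Class III is represented by Ogn, which encodes osteoglycin or mimecan, a keratan sulfate proteoglycan first isolated from bone. Its brighter probe, A_43_P16740, read 10.54, 10.23, 10.82 and 10.05 on laser arrays, 10.14, 10.37, 11.42 and 11.15 on bur arrays, and 10.30, 10.46, 10.85 and 10.76 on control arrays. The groups overlapped. The difference was 0.18 ± 0.29 in bur against control and −0.18 ± 0.29 in laser against control, neither called (limma, adjusted p = 0.693 and 0.653).

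The second Ogn probe, A_44_P994238, printed above, starts at base 999 of the same transcript, against base 2404 for the brighter one. It read 9.63, 9.36, 10.01 and 9.18 on laser arrays, 8.67, 8.70, 9.43 and 9.16 on bur arrays, and 8.59, 8.98, 9.12 and 8.80 on control arrays. All 4 laser values lay above the highest control. Tested among all kept probes, its difference in laser against control was 0.67 ± 0.22 (limma, adjusted p = 0.0405). The sign thus differed between the probes, and the mean of both gave 0.24, not called (limma, adjusted p = 0.490). The authors' deposited table gave 0.22 for this probe, with an adjusted p of 0.331.

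**Figure D3:**
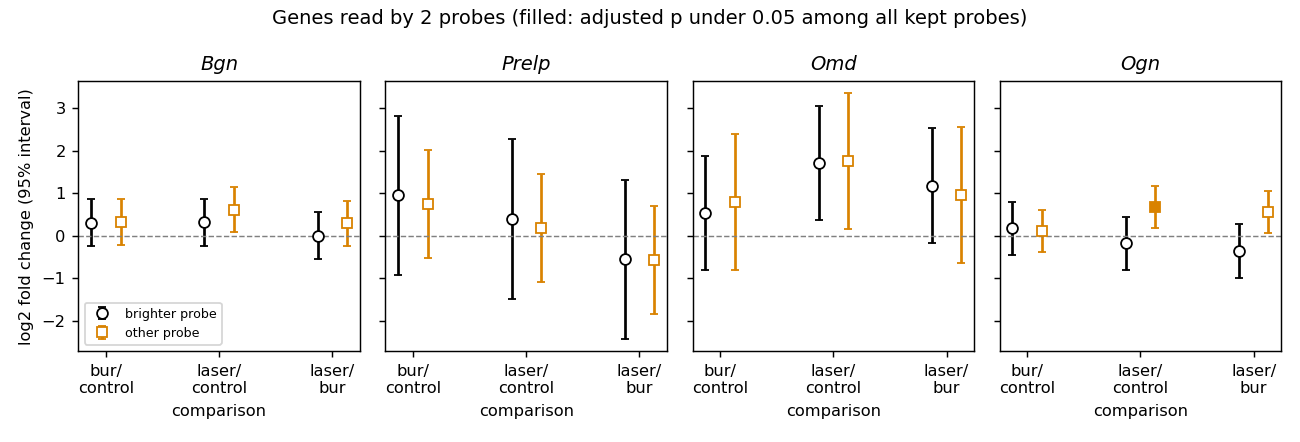
Log2 fold changes of the 4 genes read by 2 probes, with 95% intervals, for the brighter probe (circles) and the other probe (squares) in the 3 comparisons; filled symbols passed an adjusted p of 0.05 among all kept probes. The Ogn probes lie on opposite sides of 0 in both comparisons with laser bone, and the probes of Prelp and Omd have the same sign in all 3.

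For the other 3 genes with a pair of probes the probes had the same sign in both comparisons with control, and none of their differences was called. In laser against control the second Omd probe differed by 1.76, against 1.72 for the brighter probe, and the second Prelp probe by 0.19, against 0.40 for the brighter probe. The second Bgn probe differed by 0.62, against 0.32 for the brighter probe, and was not called (limma, adjusted p = 0.0748). The Bgn probes share 51 of their 60 bases, so they are not separate readings of the transcript.

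Within groups, some of the members moved together from array to array. In the laser group, array 1 was the lowest for Aspn, Fmod and Prelp, by 1.56, 1.93 and 2.07 below the group mean, and the highest for Bgn, Dcn and Omd, by 0.36, 0.50 and 1.05 above it. Array 3 of that group was the highest for Fmod and Prelp, by 2.30 and 2.26 above the mean, and the lowest for Omd, at −0.95. Over the deviations of all 12 arrays from their group means, Dcn correlated with Omd at 0.88, Fmod with Prelp at 0.78, Aspn with Prelp at 0.78 and Aspn with Fmod at 0.72. Omd and Prelp correlated at −0.62. Ogn correlated with another member at most at 0.58, with Prelp, and Lum at most at 0.45, with Ogn. These values describe 12 arrays whose probes share each array's labelling and scan.

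**Figure D4:**
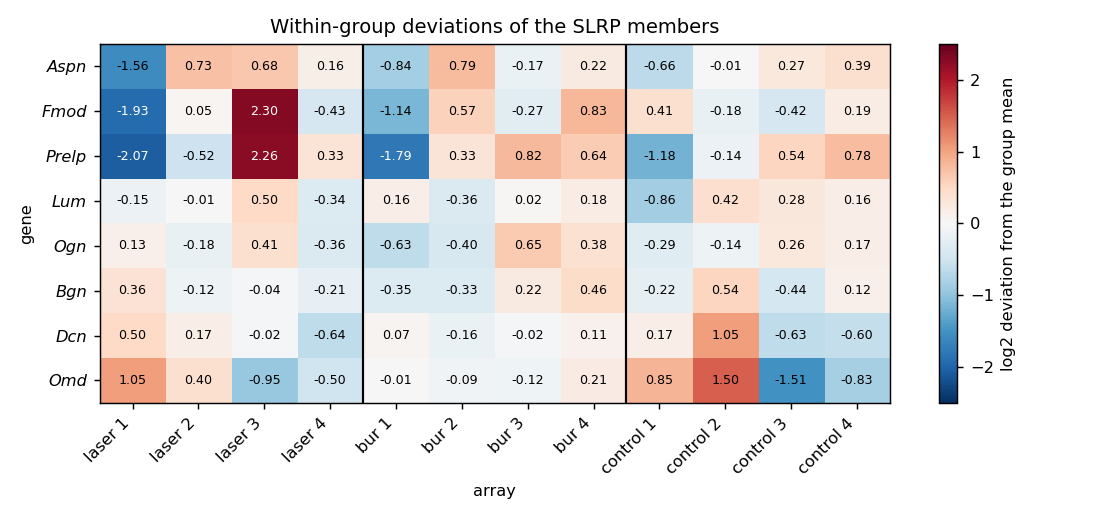
Deviation of each member from its group mean on the 12 arrays, in log2 units (red above, blue below), with the arrays of the laser, bur and control groups from left to right. In laser 1 the upper genes, Aspn, Fmod and Prelp, are below their mean and the lower ones, Bgn, Dcn and Omd, above it, and laser 3 shows the reverse for Fmod, Prelp and Omd.

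The same deviations were set beside lists of marker genes. Bgn followed the mean of 8 osteoblast markers at a correlation of 0.93, Dcn that of 10 periosteal and fibroblast markers at 0.83, and Fmod that of 11 fibril collagens and their binding partners at 0.76. Dcn was not particular to the periosteal list. It followed osteocyte markers at 0.83, tendon and ligament markers at 0.82, chondrocyte markers at 0.81 and osteoblast markers at 0.71. Aspn correlated with the periosteal and fibroblast markers at 0.12 and with the osteoblast markers at −0.20. Each value is over the 12 arrays and is a description only.

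By likeness over the 12 arrays, among about 12134 genes well above background on all arrays, the 3 nearest genes to Aspn were Ahnak2 (Pearson's r = 0.98), Aspg (0.97) and Fbln1 (0.95), the last encoding the matrix protein fibulin-1. The nearest to Fmod were Tnn (0.96), which encodes tenascin-W, Thbs2 (0.96), which encodes thrombospondin-2, and Medag (0.93). The nearest to Omd were Sgca (0.98), Kazald1 (0.97) and Fhod3 (0.96). Those to Lum were Tbc1d32 (0.95), Rxrb (0.94) and Dst (0.94). Bgn lay nearest to Kctd15 (0.92), Gpc1 (0.92), which encodes the cell-surface proteoglycan glypican-1, and Scarf2 (0.91). Dcn lay nearest to RGD1308134 (0.95), Sema3d (0.93) and Tg (0.93), Ogn to Pik3ip1 (0.94), Peli2 (0.91) and Stab1 (0.90), and Prelp to LOC103692362 (0.89), Rbp4 (0.87) and LOC100910577 (0.86). These correlations include the differences between groups.

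Of 9 other genes of the family, 7 were tested. Epyc and Optc, which encode epiphycan of cartilage and opticin of the eye, were not well above background on any array. Chad, which encodes the cartilage protein chondroadherin, read 3.52, 5.85, 5.04 and 5.56 on bur arrays and 2.46, 2.88, 2.98 and 3.32 on control arrays, of which 2 controls were well above background. All bur values lay above the controls, and the difference was 2.08 ± 0.50 (limma, adjusted p = 0.0119). It was not called with 75th percentile scaling (1.66, limma adjusted p = 0.0539) or with controls 1 and 4 both left out (2.06, limma adjusted p = 0.0647). In laser against control Chad differed by 0.94 ± 0.50, not called. Without bur 1 its difference in laser against bur, −1.14 ± 0.50 and not called, was −1.63 and called.

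Ecm2, Nyx, Tsku, Podn and Podnl1 were not called in any of the 3 comparisons, with differences from control between −0.42 and 0.98. In limma, Podnl1 was called without bur 1 in bur against control (adjusted p = 0.0319) and without laser 4 in laser against control (adjusted p = 0.0429), and Nyx without bur 2 (adjusted p = 0.0485) or bur 3 (adjusted p = 0.0427) in laser against bur. With the mean of its probes Podnl1 was called in both comparisons with control (0.93 and 1.24), and Ecm2 in laser against control (0.91). The second Ecm2 probe was well above background on the 4 laser arrays and on no bur or control array, so it was kept through the laser group alone. The Ecm2 call by the mean thus rests in part on dim spots, and the brighter probe differed by 0.25 in laser against control, not called. The second Podnl1 probe was well above background on 4 laser arrays, 1 bur array and 2 control arrays. The Nyx probe was also well above background on 4 laser arrays, 1 bur array and 2 control arrays. All differences of Nyx thus rest in part on dim spots. Other settings called Nyx in laser against control (normexp and the authors' values) and in laser against bur (75th percentile scaling, the authors' values, array weights and the replicate block). They called Podnl1 in bur against control (normexp, 75th percentile scaling, probes above background on every array and the authors' values) and Ecm2 in bur against control (the replicate block). Chadl was read well above background on the 4 laser arrays and on no bur or control array, so that it entered the tests through the laser group alone. As a description, its laser mean was 1.24-fold the mean of the bur background limits. Laser 3 (2.43) lay below the limits of bur 1 (2.625) and bur 2 (2.75). The control mean, from dim spots, was 2.91, above the laser mean of 2.80. Background limits were 1.59 to 1.93 on laser arrays and 2.02 to 3.09 on control arrays. No fold is given between bur and control.

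Among the members' collagen partners, several were higher in cut bone. Of 11 tested fibril collagens and binding partners, 5 were called higher in bur against control and 5 in laser against control, and none lower. Of all genes, 13.7% and 18.3% were called higher. The median log2 difference of the 11 was 1.01 and 0.99, where the medians of all genes were 0.08 and 0.01. Col3a1, a chain of the thin fibrils of young matrix, averaged 13.07 ± 0.63 in bur bone and 11.13 ± 0.20 in control bone (SD, n = 4 each), and its differences from control were 1.93 for bur and 1.89 for laser. Col6a3, a chain of the beaded filaments that biglycan and decorin bind, differed by 1.16 in bur and by 1.41 in laser bone; with controls 1 and 4 both left out the bur value was 1.03 and not called. Col1a2, a chain of the main bone collagen, averaged 15.82 ± 0.14 in laser bone, 13.93 ± 0.14 in bur bone and 14.00 ± 0.56 in control bone. It was called in laser against control (1.82) and in laser against bur (1.89). The count for bur was 3 without bur 3, bur 4 or control 1, and that for laser was 8 without control 2. With controls 1 and 4 both left out the counts were 1 for bur and 3 for laser, and 14.4% and 24.6% of all genes were called.

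Of 22 tested enzymes that build chondroitin and dermatan sulfate chains, 3 were called higher in bur and 6 higher in laser against control, with medians of 0.21 and 0.28. Of all genes 13.7% and 18.3% were called higher, so the bur count is near the background. Dse, the epimerase that turns chondroitin into dermatan sulfate, averaged 6.01 ± 0.12 in laser bone, 7.43 ± 0.25 in bur bone and 5.53 ± 0.12 in control bone. It was called in bur against control (1.90), laser against control (0.48) and laser against bur (−1.42). Chst3, a chondroitin 6-sulfotransferase, was called in laser against control (1.38), though not with controls 1 and 4 both left out (1.17). The count for bur was 5 without bur 2 and that for laser 3 without laser 1, and both were 1 with controls 1 and 4 left out. Of 7 keratan sulfate enzymes, 1 was called higher in bur against control, 1 higher in laser against control, and 2 higher and 1 lower in laser against bur. In laser against bur 11.6% of all genes were called higher and 14.2% lower. Chst1, which sulfates galactose, was called in bur against control (0.97) and was lower in laser against bur (−1.14). Chst2, which sulfates N-acetylglucosamine, was called higher in laser against control (1.13) and in laser against bur (1.14). Chst2 was well above background on only 4 of the 12 arrays, so both of its differences rest in part on dim spots. Both of its calls were lost when laser 1, laser 2 or laser 4 was left out. They were also lost without control 1, 3 or 4 in the comparison with control, and without laser 3, bur 2 or bur 4 in that with bur.

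Of 17 growth factors and receptors that these proteoglycans are known to bind, 7 were called higher in bur and 6 higher in laser against control, and 5 were called lower in laser against bur. The shares of all genes were 13.7% and 18.3% called higher against control, and 14.2% called lower in laser against bur. The medians of the 17 were 0.70, 0.39 and −0.39. The 5 were Cd44, Cd14, Met, Tlr2 and Tlr4, the last named after its values were seen. Tlr2, a receptor for free biglycan, averaged 10.35 ± 0.57 in laser bone, 12.12 ± 0.67 in bur bone and 9.84 ± 0.74 in control bone. It was called in bur against control (2.27) and in laser against bur (−1.77). Bmp4, a bone morphogenetic protein that biglycan binds, was called in laser against control (1.12). The count for laser was 3 without laser 2 or control 4, and with controls 1 and 4 both left out the counts were 4 for bur and 2 for laser.

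A list of hyalectans and basement membrane proteoglycans, in which Prg4 was also counted, had 7 genes tested. Of these, 2 were called higher and 1 lower in bur against control, 1 higher and 1 lower in laser against control, and 2 lower in laser against bur. Among all genes 13.7% were called higher and 9.74% lower in bur against control, and 18.3% and 16.2% in laser against control. In laser against bur 14.2% were called lower. Prg4 was 1 of the 2 called higher in bur and the only 1 called higher in laser against control. The median was −0.14 in bur and 0.27 in laser against control. Bcan, which encodes brevican of the brain, was lower in bur (−3.04) and in laser against control (−4.06); in bur it was not called without bur 1, 2, 3 or 4 or control 1 or 4, and was −1.06 with both of these controls left out. Vcan, which encodes versican, averaged 9.38 in laser bone, 11.73 in bur bone and 9.07 in control bone. It was called in bur against control (2.67) and in laser against bur (−2.35). Prg4, which encodes lubricin, was called in bur against control (3.02) and in laser against bur (−1.76). It was also called in laser against control (1.26), but not without laser 2 or laser 4 (1.26 and 1.15). Of 12 proteases that can cut the core proteins or their partners, 3 were called higher in bur and 4 higher in laser against control, among them Adamts4 in both (1.51 and 1.75), where 13.7% and 18.3% of all genes were called higher. The count for bur was 5 without control 2, and that for laser 2 without laser 1, laser 2 or control 4. With controls 1 and 4 both left out the counts were 1 for bur and 0 for laser, and Adamts4 was not called in either (1.02 and 1.27).

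**Figure D5:**
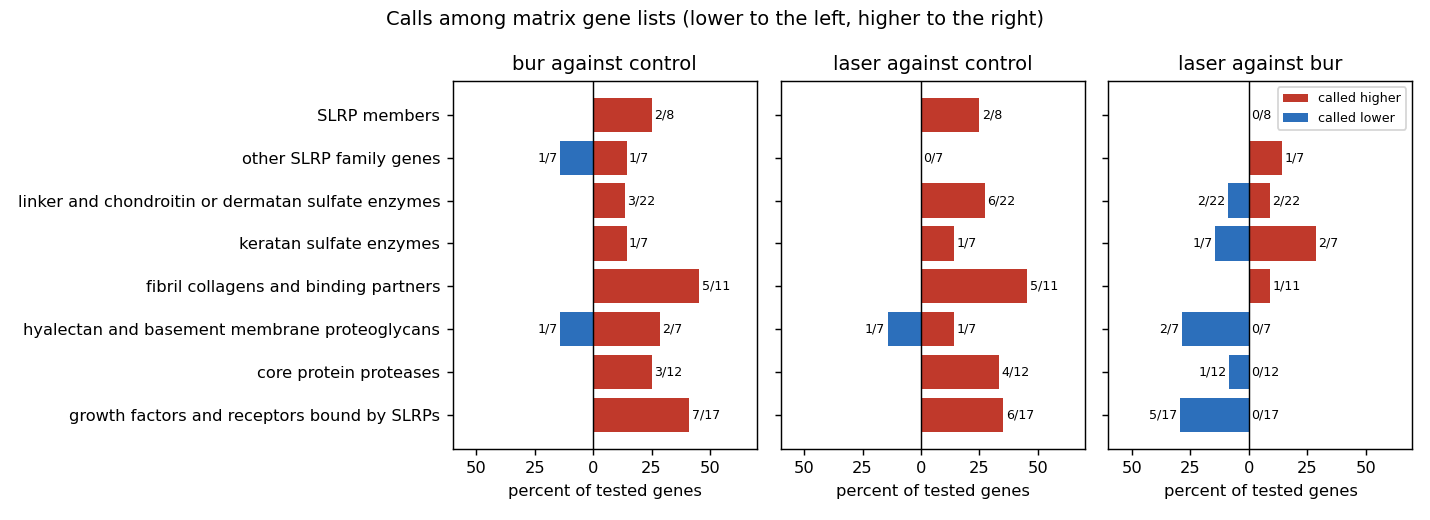
Percent of the tested genes of each matrix list called higher (right, red) or lower (left, blue) at an adjusted p under 0.05 in the 3 comparisons, with the counts at the bars. Collagens stand at 5 of 11 in both comparisons with control, and receptors at 5 of 17 lower in laser against bur. Among all genes 13.7% were called higher in bur against control, 18.3% higher in laser against control and 14.2% lower in laser against bur. Prg4 is counted in the list of hyalectans and basement membrane proteoglycans. Among other family genes, the lower call in bur against control and the higher call in laser against bur are both Chadl. Neither bur nor control arrays read Chadl well above background.

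Markers of cell types that the tissue could hold were set beside these results, with 13.7% of all genes called higher in bur and 18.3% in laser against control. Called lower were 9.74% and 16.2%, and in laser against bur 11.6% were called higher and 14.2% lower. The mean log2 level of 10 periosteal and fibroblast markers was 9.42 to 10.07 on laser arrays, 9.57 to 10.06 on bur arrays and 8.74 to 9.57 on control arrays, and 5 of the 10 were called higher in each cut group (3 in bur without bur 2, bur 4, control 1 or control 4, and 1 in bur and 2 in laser with both of these controls left out). That of 8 osteoblast markers was 11.44 to 11.76 on laser arrays, 11.14 to 11.70 on bur arrays and 10.36 to 11.18 on control arrays, with 4 of 8 called higher in laser and 2 of 8 in bur bone (0 in bur without bur 4 or control 1, and 1 without control 3). That of 7 macrophage markers was 8.29 to 8.83 on laser arrays, 9.26 to 9.68 on bur arrays and 7.75 to 8.35 on control arrays, with 4 of 7 called higher in laser and 6 of 7 in bur bone (1 in laser without laser 1, 2 or 4 or control 4, and 2 without control 3). Of 6 tendon and ligament markers, Tnmd and Cilp were not detected and 4 were tested, with means of 8.28 to 8.79, 6.65 to 7.11 and 6.07 to 6.80 on laser, bur and control arrays. The median log2 difference of the 4 was 1.26 in laser against control and 0.25 in laser against bur. Of the 4, 2 were called higher in laser, Mkx and Scx. In bur against control 1 was called higher, Scx, and 1 lower, Mkx (1 in all without bur 2, bur 3 or control 1, 2 or 3, and 0 without bur 4). Over the alternative settings Mkx ran from 2.69 to 6.31 in laser against control, and its call in bur was lost in 12 of 18. Mkx was not among the genes read above background by every array, so its differences rest in part on dim spots. Of 7 chondrocyte markers, Col10a1, Col9a1, Hapln1 and Matn3 were not detected, and of the 3 tested, 1 was called higher in laser and none in bur against control. Of 5 osteocyte markers 2 were called higher in each cut group (1 in bur without bur 3, bur 4 or control 1, 2 or 4). Of 8 skeletal muscle markers, Myh2, Myh4 and Mylpf were not tested. Of the 5 tested, 2 were called higher in bur, Tnni2 and Tnnt3, and 2 in laser against control, Acta1 and Ckm. In laser against bur Acta1 and Ckm were called higher and Tnni2 and Tnnt3 lower (2 calls in all without laser 1 or laser 3). Of 7 endothelial and pericyte markers 4 were called higher and 1 lower in laser, and 1 higher and 1 lower in bur against control (1 in all in bur without bur 4 or control 4). Further calls were lost with controls 1 and 4 both left out. In bur these were Runx2 and Sp7 (osteoblast), Mepe (osteocyte), Scx and Mkx (tendon and ligament), and Cspg4 and Vwf (endothelial and pericyte). In laser they were Sp7 and Dlx5 (osteoblast), Mepe and Phex (osteocyte), and Adgre1 and Cd14 (macrophage). The part of these cells in the values of Aspn, Fmod, Lum and Omd was not tested.

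Controls 1 and 4 also carried neural transcripts. The mean level of 7 tested neural and meningeal markers was 7.92 in control 1, 6.33 in control 2, 5.64 in control 3 and 7.53 in control 4, against 4.88 to 5.88 on laser and 4.42 to 5.83 on bur arrays, with Mog and Aldh1a2 not detected. With both of these controls left out, Aspn was 3.29 higher in bur and 2.66 higher in laser bone and Lum 0.77 higher in laser bone, all still called (limma, adjusted p = 0.0120, 0.0165 and 0.0474). Fmod in bur against control was 2.54 and not called (limma, adjusted p = 0.119).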

How the data were processed

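Total RNA of 12 samples, 200 ng each, was labelled with Cy3 and read on Agilent arrays of 1 colour, as the labels' protocols state. Spot intensity in the deposited files comes from Agilent Feature Extraction 11.0.1.1 (named in the submitters' processing notes), which also gave a background-corrected processed signal and flags, per the file headers. The authors' deposited log2 values are quantile normalized by their title, and the authors' deposited comparison tables hold log2 fold changes and adjusted p-values in columns named as limma writes them.

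Control spots (4259 of 62976) and outlier spots were left out, log2 values of the processed signal were quantile normalized, and spots of a probe were averaged. Probes well above background on at least 4 of 12 arrays were kept (27194 of 45598). A gene was represented by its brightest kept probe. RefSeq (GRCr8) gave names to 21184 probes, 14713 carry the array design's own name, and 9701 have no symbol. No spot was saturated, and the number of arrays limits the precision. A single limma model covered the 12 arrays (lmFit and eBayes of limma 3.58.1, R 4.3.3), and a gene was called where its p, adjusted after Benjamini-Hochberg over 16381 genes, was under 0.05. The fit was tested on simulated data.

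The members and gene lists were chosen with earlier results of these data known. The genes named are all members, the other family genes, up to 4 genes of each list with the smallest p among those called against control (a subset is printed), and the 3 genes most correlated with each member. Alternatives covered background correction, scaling, filter, probe choice, the authors' values, array weights, the replicate number and left-out arrays. Same-numbered arrays of different groups deviated together at correlations of −0.10 to 0.35. The best-correlated array had the same number for numbers 1, 2 and 4 in bur against control. It did so for 1 and 4 in laser against control and for 1 in laser against bur. The replicate number is also the row of the array on its slide. The numbers were not taken to pair the samples, and a fit with the number as a block is given below.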

Additional observations from a re-analysis of the deposited data

How the results depend on the processing

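Over the 445 alternative values of the 8 members, 395 kept their direction and side of the threshold, 13 lost and 14 gained a call, and 23 changed sign, none of them called. Aspn was called in bur and in laser against control under all 18 alternatives that could test it (1.31 to 3.70 and 1.05 to 3.32); it is not among the genes read above background by every array. Lum in laser against control was called under all 19 (0.77 to 1.26), and in bur against control under 4 of 19 (0.43 to 0.92). Fmod in bur against control was called under 6 of 19 (1.88 to 2.62), and Omd in laser against control under 8 of 19 (1.21 to 2.29).

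The number of members called in bur against control was 1, Aspn, with no filter on dim probes, with array weights, with the replicate number as a block and without controls 1 and 4, and 1 to 2 when single arrays were left out. In laser against bur it was 1, Omd, with array weights (1.44, limma adjusted p = 0.0481). With the replicate block the members called in laser against control were Aspn, Lum and Omd (Omd adjusted p = 0.0236 in limma) and Fmod in bur against control was lost (2.24, limma adjusted p = 0.0572). The genes called in bur against control numbered 2476 with only those 2 groups in the fit and 2353 without controls 1 and 4, against 3837.

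The sign changed under these settings; the cause was not tested. With normexp, Ogn in bur against control was −0.11, Bgn in laser against bur −0.0085, Chadl in laser against control 0.0092 and Nyx in bur against control 0.0354. With 75th percentile scaling, Bgn in laser against bur was −0.0901. With the mean of a gene's probes, Ogn was 0.24 in laser against control and 0.10 in laser against bur, and in laser against bur Ecm2 was 0.21 and Podnl1 0.31. With the authors' deposited values, Ogn was 0.22 and 0.11 in those comparisons, and Nyx 0.0616 in bur against control. With array weights, Prelp was −0.29 in laser against control, and in laser against bur Bgn was −0.0609 and Podn −0.11. Without controls 1 and 4, Dcn was −0.13 in bur and −0.0269 in laser against control, Tsku −0.0883 and −0.16, and Ecm2 −0.0306 in laser against control. When single arrays were left out, in bur against control Ogn ran from −0.0418 to 0.39, Dcn from −0.12 to 0.44 and Nyx from −0.75 to 0.0561. In laser against control Dcn ran from −0.0223 to 0.54, Prelp from −0.36 to 1.09 and Chadl from −0.17 to 0.0143. In laser against bur Bgn ran from −0.12 to 0.16, Dcn from −0.066 to 0.32, Fmod from −1.30 to 0.11, Prelp from −1.31 to 0.13, Podn from −0.23 to 0.42, Podnl1 from −0.24 to 0.0188 and Tsku from −0.20 to 0.0547.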
